A study of Ovis aries with 2 samples.

Results

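A set of 9 regulators stands at the centre of gene control of the granulosa cell, the somatic cell that surrounds the oocyte: FOXL2, FOXO1 and FOXO3 of the forkhead family, the zinc finger factors GATA4, GATA6 and WT1, the LIM homeobox factor LHX9, the SOX factor SOX4 and the coactivator CITED1. They were taken by gene name from the deposited transcript table, and 8 of the 9 names were found, each as 1 transcript entry, among 19909 named genes and unnamed entries. FOXL2 is not analysed here. The members were followed in RNA from granulosa cells of Hu sheep ewes aged 3 to 4 years, in the luteal phase of the cycle, on a generous or a scant ration. The 8 nutrient-supplemented ewes were fed 1560 g a day each, which is 1.5 times maintenance, and the 8 dietary restricted ewes were fed 520 g, which is 0.5 times maintenance. All follicles wider than 2.5 mm were dissected from the ovaries and the granulosa layer was scraped off, so the follicles of all such sizes are mixed. Each diet is represented by 1 library, the labels do not say how many ewes contributed to it, and no test of the diets is possible. The comparison addresses which of these regulators differ between the supplemented and the restricted library.

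Several of these factors act from the first formation of the gonad. In mice, WT1, LHX9 and GATA4 are needed for the gonadal ridge to form, FOXL2 keeps ovarian somatic cells from taking on features of the testis, and GATA4 and GATA6 together carry granulosa cells through follicle growth. FOXO1 and FOXO3 are switched by nutrient and hormone signals: kinases below insulin, IGF1 and follicle-stimulating hormone phosphorylate them and send them out of the nucleus. That switch acts on the protein and is not measured by RNA.

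Depth was 9426679 reads in the supplemented library and 11299773 in the restricted one, recovered from the authors' scaled values. Levels are FPKM, the fragments per kilobase of transcript model, scaled and deposited by the authors. Genes with a mean of at least 1 FPKM over both libraries were called measured, which left 11927. The 15 genes of a granulosa cell list that are in the table were all measured and summed to 12450.3 FPKM in the supplemented and 28687 FPKM in the restricted library, with a median log2 ratio of -0.98 over the list. All 17 leukocyte markers in the table were measured and had ratios above 0, with sums of 971 and 190.2 FPKM, and 13 stromal and smooth muscle markers summed to 1273 and 653 FPKM. Of the 12 measured stromal and smooth muscle markers, 9 had ratios above 0 and 3 below, which were LUM, PDGFRA and PDGFRB. The 8 theca markers in the table summed to 237 and 118.6 FPKM, with 5 of 5 measured above 0. The 7 endothelial markers summed to 18.8 and 5.42 FPKM, with 3 of 3 measured above 0. EMCN, 1 of these 3, passed the filter only through the library in which it was higher. No leukocyte marker in the table had fewer than 58 reads in the supplemented library, and none had fewer than 21 in the restricted one. The 9 oocyte markers in the table ran the other way, with sums of 18.7 and 28.2 FPKM and 6 of 6 measured below 0. The part of all these cells in the members' values was not tested. In such bulk RNA, fewer cells of a type and less RNA per cell cannot be told apart. Of the Sertoli cell factors, the male counterparts that were looked for as a check of cell identity, SOX9 had 1 read in the supplemented library and 0 in the restricted one, where a count of 0 allows up to 3 reads. DMRT1 had 3 reads and 1 read, SOX10 had the most of this list with 13 and 8 reads, and none of the 5 such factors in the table was measured.

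Across the members the data show a modest rearrangement with GATA6 at one end. GATA6 was 1.95-fold lower in the supplemented library, GATA4 and CITED1 were lower by less, FOXO1, SOX4, FOXO3 and LHX9 were higher, and WT1 could not be placed at its depth. On the log2 scale of FPKM + 1, 0 of the 8 were at least 2-fold lower, against 2.85% of all measured genes, and 0 were at least 2-fold higher, against 5.87%. The 95% counting interval of the read ratio lay wholly below 1 for 3 members, against 35.7% of all measured genes. It lay wholly above 1 for 4 members, against 20.4%. LHX9, 1 of these 4, passed the filter only through the library in which it was higher. At a mean of at least 5 FPKM, with 5 members left, intervals above 1 numbered 2, beside 17.9% of all genes at that level. The median log2 ratio of the 8, LHX9 included, was 0.19, beside -0.08 over all measured genes. The authors' deposited table calls 0 of the 8 at q below 0.05, against 0.743% of all entries, and GATA6 is the 1 member with an unadjusted p below 0.05 there (p = 0.0307, q = 0.637). Those p and q values compare these 2 libraries and not the diets. All intervals describe counting error alone: PCR copies are not separate molecules, and how much ewes differ was not measured.

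**Figure D1:**
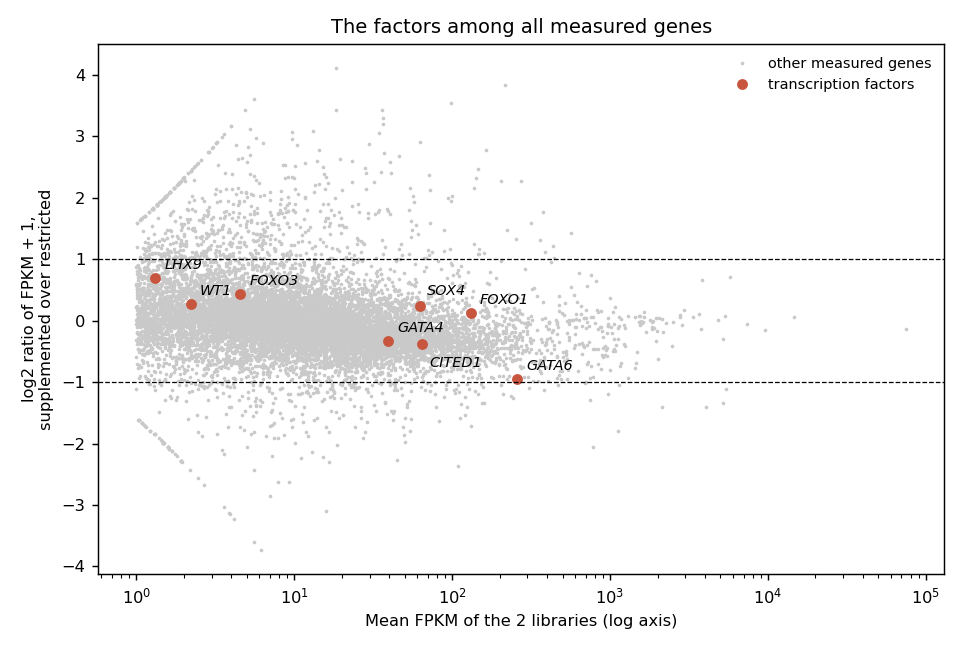
Each dot is a measured gene, with the mean FPKM of both libraries on a log x axis and the log2 ratio of FPKM + 1, supplemented over restricted, on the y axis, and dashed lines at 1 and -1. The 8 factors, in red, all lie between the dashed lines, GATA6 nearest to one of them at -0.96.

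The GATA factors bind the GATA motif through paired zinc fingers and switch on granulosa genes such as those of inhibin and anti-Mullerian hormone. GATA6 (CCG013833.0, chromosome 23 from 34474491 to 34494175 of Oar_v3.1) stood at 175 FPKM in the supplemented and 341 FPKM in the restricted library. These levels rest on 675 and 1360 reads. The supplemented value was the lower of the 2, and the read ratio was 0.514 (0.468 to 0.564), or 1.95-fold lower (1.77 to 2.14). GATA6 was the most abundant of the 8 by FPKM in each library, at percentiles 96.5 and 97.9 of measured genes, and its share of their summed FPKM was 36.4% in the supplemented library and 52.7% in the restricted one.

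GATA4 (CCG019364.0, chromosome 2 from 104323180 to 104372094) stood at 34.9 FPKM in the supplemented and 44.04 FPKM in the restricted library, on 563 and 735 reads. Its read ratio was 0.793 (0.709 to 0.886). GATA4 was lower as deposited, by less than GATA6, but by share of all reads its interval included 1 (0.918, 0.821 to 1.03) and centred on the granulosa list its ratio was 1.56. The reads of GATA4 per read of GATA6 were 0.834 in the supplemented library and 0.540 in the restricted one, a ratio of ratios of 1.54 (exact conditional interval 1.33 to 1.79) that does not depend on how the libraries are scaled. The balance within the GATA pair was shifted toward GATA4 in the supplemented library by more than counting error.

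Of the forkhead members, FOXO1 restrains granulosa cell proliferation and hormone-stimulated genes in rodents. FOXO1 (CCG014336.0, chromosome 10 from 22237525 to 22238862) stood at 137 FPKM in the supplemented and 125 FPKM in the restricted library. It had the most reads of all members, 3457 and 3264, and a ratio of 1.10 (1.04 to 1.15). The interval excludes 1 because the count is high, and the difference itself is small. FOXO3, which in mice holds primordial oocytes at rest and is also present in somatic cells, lies on chromosome 8 from 28612645 to 28689989 (CCG021410.0). It stood at 5.38 FPKM in the supplemented and 3.73 FPKM in the restricted library, on 192 and 138 reads, with a ratio of 1.44 (1.15 to 1.81). FOXO1 thus exceeded FOXO3 in both libraries. There were 18.01 FOXO1 reads per FOXO3 read in the supplemented library and 23.7 in the restricted one, a ratio of ratios of 0.761 (0.604 to 0.958).

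WT1 and LHX9 were the scarcest. WT1, a zinc finger factor of small follicles whose expression declines as follicles grow, lies on chromosome 15 from 61326486 to 61373908 (CCG014844.0). It stood at 2.52 FPKM in the supplemented and 1.91 FPKM in the restricted library, on 46 and 36 reads. The ratio of 1.32 had an interval from 0.837 to 2.11, so a difference in WT1 was not detectable at this depth. LHX9 (CCG018738.0, chromosome 12 from 74963902 to 74975433) stood at 1.87 FPKM in the supplemented and 0.766 FPKM in the restricted library, on 40 and 17 reads. Its read ratio of 2.44 was the largest of the 8 and the least precise (1.35 to 4.58). On the log2 scale of FPKM + 1 it was 0.70, since the added 1 weighs heavily at such a level. LHX9 was above the minimum of 1 FPKM in the supplemented library and below it in the restricted one, so its passing the filter rests on its higher value.

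SOX4, an HMG box factor of the SoxC group, and CITED1, a coactivator that binds no DNA itself and links CBP and p300 to SMAD4 and the oestrogen receptor, had similar levels and opposite ratios. SOX4 (CCG005004.0, chromosome 20 from 35439390 to 35441659) stood at 67.8 FPKM in the supplemented and 57.2 FPKM in the restricted library, on 720 and 628 reads, a ratio of 1.19 (1.06 to 1.32). CITED1 (CCG007016.0, chromosome X from 61515337 to 61516502) stood at 56.1 FPKM in the supplemented and 73.3 FPKM in the restricted library, on 480 and 649 reads, a ratio of 0.766 (0.679 to 0.863). SOX4 was above CITED1 in the supplemented library and below it in the restricted one. SOX4 reads per CITED1 read were 1.50 and 0.968, and the ratio of ratios was 1.55 (1.32 to 1.82), a pair chosen after its values were seen.

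**Figure D2:**
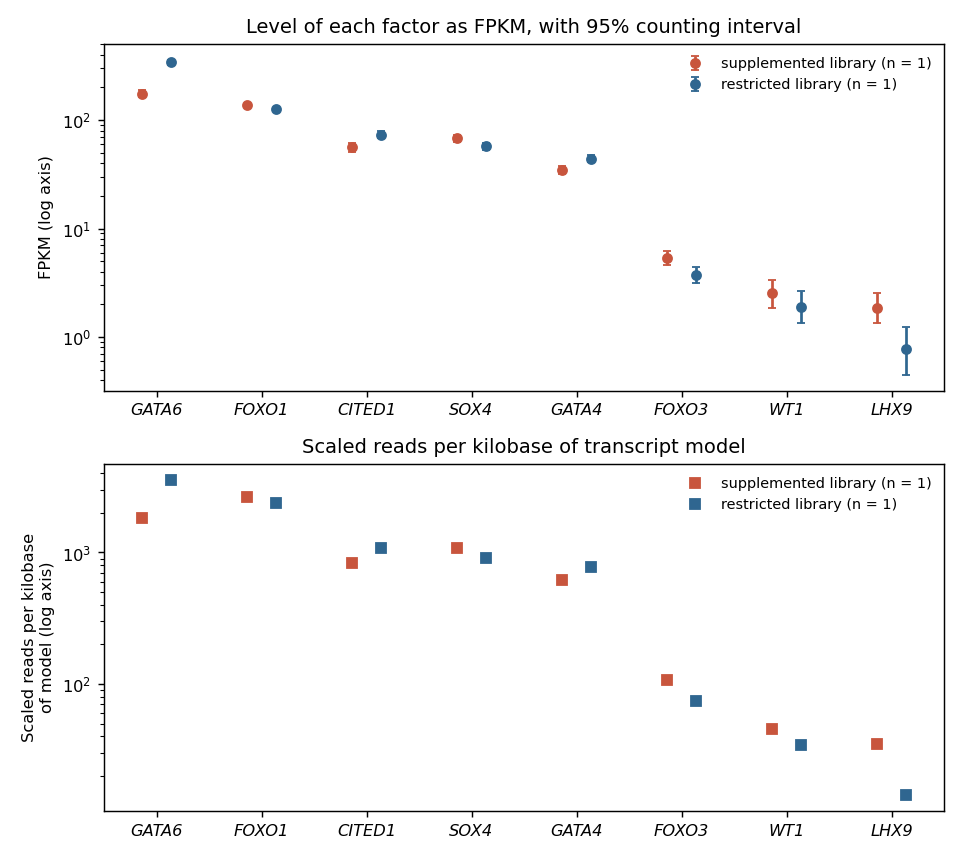
Upper panel, FPKM of each factor on a log axis with its 95% exact Poisson interval; lower panel, scaled reads per kilobase of the whole transcript model on a log axis. Red is the supplemented and blue the restricted library, 1 each. The 5 factors on the left lie above 30 FPKM in each library and the 3 on the right below 6 FPKM.

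The order of levels was the same in both libraries apart from SOX4 and CITED1: GATA6, FOXO1, then these, then GATA4, FOXO3, WT1 and LHX9. Neighbours in this order differed beyond their counting intervals, with the exception of WT1 and LHX9 in the supplemented library. The place of GATA6 depends on the length of its model. From the reads per FPKM, the GATA6 entry corresponds to 375 bases of transcript within a locus of 19685 bases, the shortest model of the 8. The FOXO1 entry had 1338 bases, which fill the locus listed for it without an intron. The entry of FOXO3 had 1815 bases, LHX9 1170, WT1 1026, GATA4 930, SOX4 681 and CITED1 588 bases. Whether these models cover the whole transcript or coding sequence was not examined, and some may be partial. The order of levels therefore holds only for the models as listed. FPKM as deposited divides by an effective length that is about 201 bases shorter than the model, which raises short models most. Per kilobase of the whole model, FOXO1 led in the supplemented library with 2628 scaled reads against 1829.6 for GATA6, and GATA6 led in the restricted library with 3561 against 2397 for FOXO1. The ratio of a gene between the libraries is not touched by its model length.

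Ratios between the members do not depend on how the libraries are scaled. Of the 28 pairs of members, 20 had a ratio of ratios whose counting interval excluded 1, without adjustment for the number of pairs. The same share over pairs of all measured genes was not computed. Singly, 35.7% of all measured genes had intervals below 1 and 20.4% above. The pairs are built from 8 member ratios, so the place of a member among them follows largely from its own ratio. GATA6 was lower against all 7 others. CITED1 and GATA4 were each lower against 5 and higher against 1, which was GATA6. LHX9 was higher against 5, FOXO3 against 4 and WT1 against 3, and none of these was lower against any. The widest shift was that of GATA6 against LHX9, with 16.9 GATA6 reads per LHX9 read in the supplemented library and 80.0 in the restricted one (ratio of ratios 0.211, 0.111 to 0.384). This pair was picked as the extreme after the values were seen. LHX9 had only 40 and 17 reads and passed the filter only through the library in which it was higher. The interval included 1 for GATA4 against CITED1 (1.04, 0.879 to 1.22) and for FOXO1 against SOX4 (0.924, 0.820 to 1.04).

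**Figure D3:**
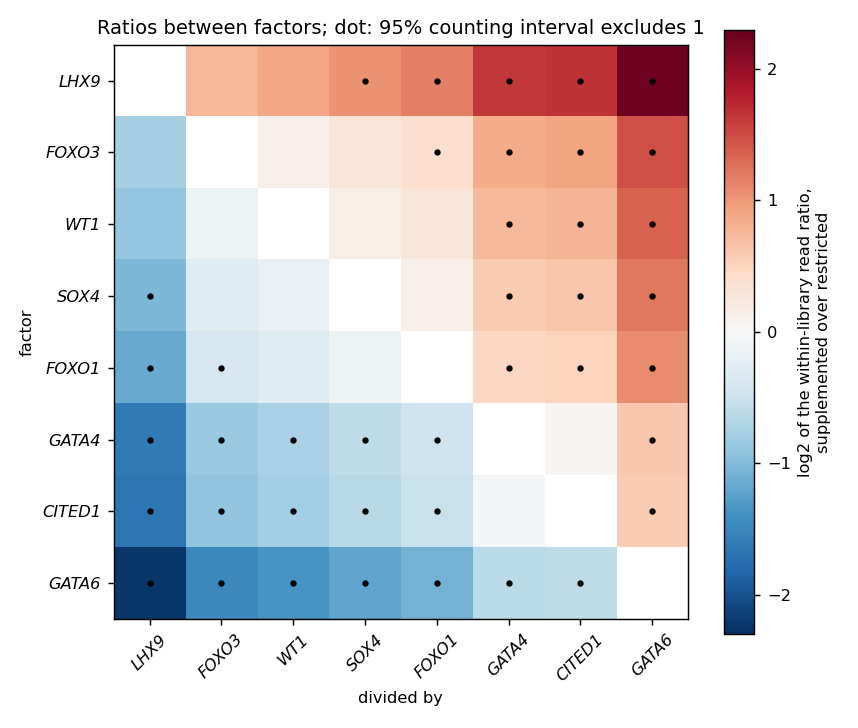
Each cell gives the log2 of the read ratio of the row's factor to the column's factor, supplemented over restricted, and a dot marks a 95% counting interval that excludes 1. The GATA6 row is blue with a dot in all 7 columns, and the LHX9 row is red with a dot in 5.

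How far each factor differed also depends on what is held constant between the libraries. As a share of all recovered reads, a scaling that raises the log2 read ratio of every gene by 0.21, GATA6 was still lower (0.595, 0.542 to 0.653), CITED1 lay at the edge (0.887, 0.786 to 0.999) and GATA4 had an interval that included 1. FOXO1, SOX4, FOXO3 and LHX9 had intervals above 1 as deposited. Each alternative scaling tried raises all read ratios, so none could bring these intervals down to 1. Centred on the granulosa cell list, which raises log2 read ratios by 0.98, all 8 members moved up: GATA6 lay at 1.01 (0.920 to 1.11), so it was lower by about as much as the median gene of that list, while GATA4 lay at 1.56 (1.40 to 1.74), CITED1 at 1.51 (1.34 to 1.70) and FOXO1 at 2.16 (2.06 to 2.26). On that scaling 7 of the 8 intervals lay above 1, beside 85.8% of all measured genes, so the upward move is shared by most genes.

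**Figure D4:**
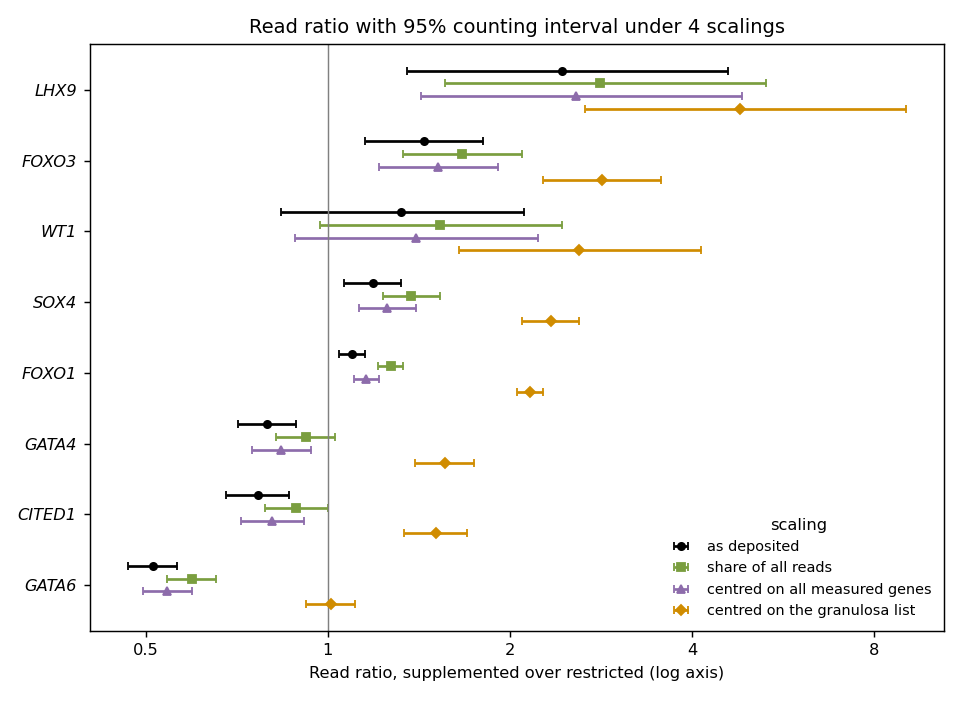
Read ratio of each factor, supplemented over restricted, on a log axis with its 95% counting interval under 4 scalings of the libraries. GATA6 is below 1 as deposited (0.514), by share of all reads and centred on all measured genes, and lies at 1.01 when centred on the granulosa list.

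Relatives of the members were examined from lists of 55 further transcription factors, cofactors and counterparts, of which 46 were in the table and 23 were measured. Of the 23, 0 were at least 2-fold lower and 1 was higher, beside 2.85% and 5.87% of all measured genes. Their median log2 ratio was -0.06, and 8 had counting intervals below 1 and 3 above, beside 35.7% and 20.4% of all measured genes. ZFPM1, or FOG1, a cofactor that binds GATA factors, stood at 5.397 FPKM in the supplemented and 9.28 FPKM in the restricted library (ratio 0.582, 0.525 to 0.644). ZFPM2, or FOG2, the cofactor of GATA4 in heart and gonad, stood at 17.9 and 19.3 FPKM (read ratio 0.831, 0.754 to 0.916). ZFPM2 is summed over 2 entries, and its log2 ratio of FPKM + 1 was only -0.11. GATA5 stood at 0.913 and 1.62 FPKM on 30 and 55 reads (0.565, 0.349 to 0.897), and passed the filter only through the library in which it was higher. All 3 had intervals below 1 as deposited, as did GATA4 and GATA6, but by share of all reads only that of ZFPM1 did (0.673, 0.608 to 0.745), and centred on the granulosa list all 3 ratios were above 1.

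Other forkhead genes went in both directions. FOXO4, the third classical FOXO factor, stood at 10.2 FPKM in the supplemented and 6.36 FPKM in the restricted library (1.60, 1.32 to 1.94). FOXK2 stood at 23.0 and 28.2 FPKM and FOXP1 at 17.98 and 17.7 FPKM. FOXO6 was the 1 relative past the size threshold, at 13.3 and 5.71 FPKM, but its reads were 58 and 49 (1.23, 0.823 to 1.83). CITED2, the most abundant relative, stood at 169 and 190.5 FPKM, and CITED4 at 65.8 and 53.3 FPKM. Of the LIM factor partners, LMO4 stood at 33.8 and 21.1 FPKM (1.60, 1.35 to 1.91), and LDB1, the bridging cofactor of LIM proteins, at 42.5 and 44.8 FPKM (ratio interval 0.8696 to 1.04). SOX15 and SOX13 had between 33 and 43 reads in each library, and their intervals included 1.

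Regulators that act on FOXO proteins were measured for 11 of 12 names in the list, with a median log2 ratio of -0.12, 0 at least 2-fold lower and 1 higher, beside 2.85% and 5.87% of all measured genes. SGK1, a kinase induced by follicle-stimulating hormone that phosphorylates FOXO factors, stood at 22.1 FPKM in the supplemented and 8.51 FPKM in the restricted library, a ratio of 2.59 (2.32 to 2.91). YWHAZ, a 14-3-3 protein that holds phosphorylated FOXO in the cytoplasm, stood at 53.6 and 77.6 FPKM, and USP7, which removes ubiquitin from FOXO, at 31.3 and 34.1 FPKM.

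Known FOXO target genes went in both directions. Of 17 measured targets, 1 was at least 2-fold lower and 1 higher, beside 2.85% and 5.87% of all measured genes. Intervals lay below 1 for 4 targets and above 1 for 7, beside 35.7% and 20.4% of all measured genes, and the median log2 ratio was 0.10. PIK3IP1, an inhibitor of PI3 kinase, stood at 7.199 FPKM in the supplemented and 2.45 FPKM in the restricted library (2.93, 1.91 to 4.61). IGFBP1, the insulin-repressed target known from liver, stood at 2.73 and 13.0 FPKM (0.2101, 0.164 to 0.267). GADD45A, a growth arrest gene, stood at 147 and 275 FPKM (0.53, 0.51 to 0.55), TRIB2, a pseudokinase, at 414 and 587 FPKM, and TXNIP, an inhibitor of glucose uptake, at 145 and 148 FPKM (0.98, 0.93 to 1.03). The FOXO1 level differed by a factor of 1.10, and a relation between it and these targets was not tested.

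Genes known in other species as targets of FOXL2, GATA4, GATA6, WT1 or SOX4 included 14 measured names, 3 at least 2-fold lower and 3 higher, beside 2.85% and 5.87% of all measured genes. Their median log2 ratio was -0.28, with 8 intervals below 1 and 3 above, beside 35.7% and 20.4%. The inhibin alpha gene INHA, aromatase CYP19A1 and the cyclin CCND2 were lower, with log2 ratios of -1.35, -1.72 and -1.41, and STAR, PTGS2 and AREG, genes that the ovulatory stimulus induces, were higher, with log2 ratios of 1.78, 1.93 and 1.57. AREG rests on 41 reads in the supplemented library and 6 in the restricted one. PTGS2, at 4.01 and 0.317 FPKM, and AREG, at 3.41 and 0.483 FPKM, passed the filter only through the library in which they were higher. FST, the activin-binding protein follistatin, stood at 1586 and 2432 FPKM, AMH at 60.2 and 87.97 FPKM, and FSHR at 65.5 and 74.3 FPKM. INHA, CYP19A1 and CCND2, and also FST, AMH and FSHR, belong to the granulosa cell list as well, whose median log2 ratio was -0.98. The target list is thus not separate from that list. The leukocyte, theca and endothelial lists had median log2 ratios of 2.05, 0.64 and 1.22 and ran in the direction of STAR, PTGS2 and AREG. The endothelial median is over 3 measured genes and is the value of EMCN, on 21 and 4 reads. EMCN passed the filter only through the library in which it was higher. The endothelial markers below the filter had log2 ratios from 0.12 to 0.83. The part of these cell types in the values of STAR, PTGS2 and AREG was not tested. Each alternative scaling tried raises log2 read ratios, by 0.98 at most, so by its size none could move the 6 genes past the threshold across 0. The 2-fold calls of the 3 lower genes did depend on the scaling. Centred on the granulosa list, which holds them, INHA, CYP19A1 and CCND2 had log2 ratios of -0.37, -0.76 and -0.44, all short of 2-fold.

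**Figure D5:**
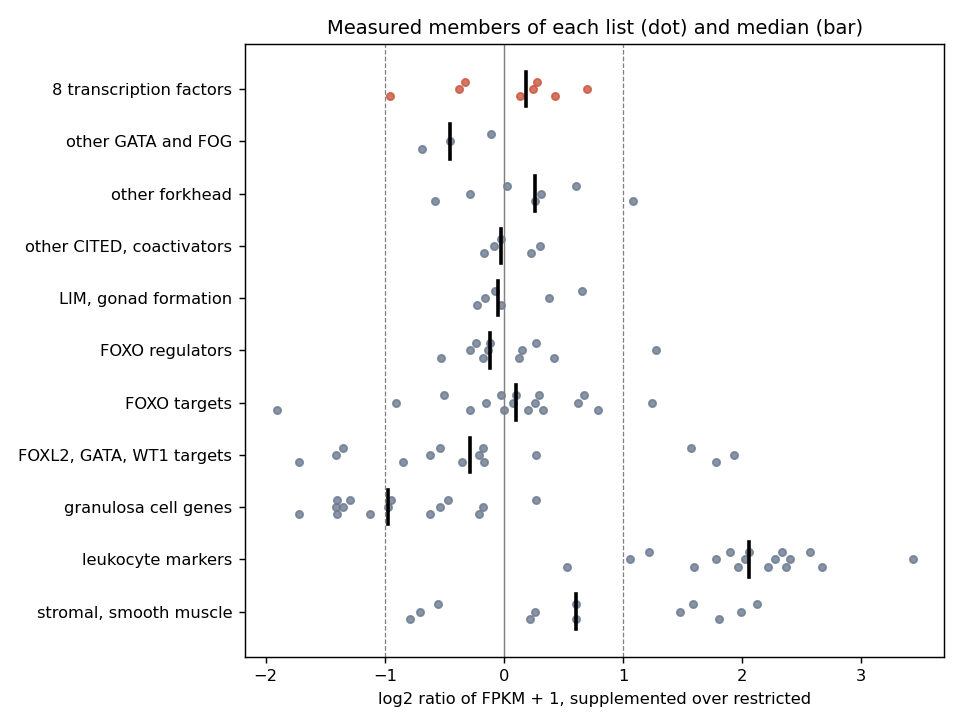
Each dot is a measured gene and each bar the median of its list, on the log2 ratio of FPKM + 1, supplemented over restricted, with dashed lines at 1 and -1. The 8 factors lie between -0.96 and 0.70, the granulosa cell genes mostly to the left of 0 and the leukocyte markers to the right.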

How the data were processed

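Per the submitters' processing notes, TopHat, Cuffdiff and the sheep build Oar_v3.1 were used, without versions given, and the annotation was not given in the sources used here. A table deposited by the authors lists 22881 transcript entries. Its read columns are a scaled signal made by the authors, with steps of 1.02 per read for the supplemented and 0.983 per read for the restricted library. Whole reads were recovered from these steps, to a tolerance of 0.02, for 98.5% and 98.3% of the entries above 0. A count test needs replicates and was not run. FPKM, p-values, q-values and log2 fold changes are the authors', as deposited. Columns were assigned by the sample descriptions.

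Reads and FPKM were summed per gene name, and each member had 1 entry overlapped by 0 others. Ratios are supplemented over restricted, from scaled reads, with exact Clopper-Pearson 95% intervals, or log2 of FPKM + 1. The exact Poisson interval was used for levels and the exact conditional interval of an odds ratio for pairs (SciPy 1.17.1, Python 3.11.15). Model lengths came from reads per FPKM, calibrated on 194 of 1151 loci of 1000 to 4000 bases that lay within 0.3% of a straight line of reads per FPKM on locus length. Of 9899 entries with models of 400 to 4000 bases, 93.8% had lengths that were multiples of 3, so these are mostly coding lengths. For GATA6, whose model is shorter than the calibrated range, the length is approximate. Coordinates are written 1-based. The procedure was tested on simulated data.

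The members and the gene lists were chosen with earlier results of these data known. Named genes are all members, list genes at least 2-fold different, and up to 3 more per list of highest FPKM. A gene that this rule selects is not reported here. SOX9, DMRT1, LUM, PDGFRA and PDGFRB were named after their values were seen. Alternatives covered pseudocounts, filters, scalings, the most abundant entry and other thresholds. Some were added after seeing the data: the ratio to FSHR, intervals beyond 1.5-fold and ratios with no pseudocount.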

Additional observations from a re-analysis of the deposited data

How the results depend on the processing

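No paired analysis was possible because each diet has 1 library, and no replicate could be left out. The member count at least 2-fold lower was 0 in every alternative but the 1.5-fold threshold, where it was 1 (GATA6), beside 10.4% of all measured genes. The count higher was 1 (LHX9) with a pseudocount of 0.1, with no pseudocount and at 1.5-fold, beside 8.23%, 8.64% and 11.2% of all measured genes. It was 5 when centred on the granulosa list, beside 31% of all measured genes. On that centring, intervals wholly below 1 numbered 0 and wholly above 1 numbered 7, beside 1.31% and 85.8% of all measured genes. The log2 ratios of GATA4, GATA6 and CITED1 turned there to 0.63, 0.015 and 0.58, and the median of the 23 relatives was 0.88. That median was 0.13 by share of all reads and 0.10 relative to FSHR. At a mean of at least 5 FPKM, with 5 members left, intervals above 1 numbered 2, beside 17.9% of all genes at that level. Intervals wholly beyond 1.5-fold numbered 1 lower (GATA6) and 0 higher, beside 4.86% and 6.09% of all measured genes, by an alternative chosen after seeing the data. The most abundant entry per gene changed no member. Thresholds do not bear on ratios and medians. Depth limits WT1 and LHX9, with 17 to 46 reads per library.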

Other observations

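FOXO6 was at least 2-fold higher by summed FPKM through a second, short entry that held 2 reads and 6.51 FPKM in the supplemented library and is listed at 0 in the restricted one. Its longer entry stood at 6.76 FPKM on 56 reads in the supplemented and 5.71 FPKM on 49 reads in the restricted library.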
